A study of Mus musculus with 8 samples.

Results

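The genes described here are 9 markers and regulators of the cardiac conduction system in the mouse heart: the pacemaker channels *Hcn2* and *Hcn4*, the transcription factors *Tbx2*, *Tbx3*, *Shox2* and *Isl1*, the connexins *Gja5* and *Gjc1*, and the adhesion molecule *Cntn2*. Members were found by matching the RefSeq accession of each array probe to these genes, and every matching probe was kept. This gave 14 probes of 9 genes among 41174 probes, of which 28223 were named to 19096 genes. RNA came from whole hearts of untreated E18.5 embryos of chow-fed C57BL/6 mice (C57BL/6J in the study's methods), from 4 WT hearts and 4 SIRT1 KO hearts, 1 heart per one-color Agilent array. SIRT1 is an NAD+-dependent deacetylase, and the KO was a germ-line deletion in the whole body, so it was not limited to cardiomyocytes or to conduction cells. WT and SIRT1 KO embryos came from crosses of heterozygous parents, both sexes were used, and the question was which transcripts differ between the genotypes shortly before birth.

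The heartbeat starts in the sinoatrial node, where HCN channels pass the inward current that depolarizes pacemaker cells between beats. *Isl1*, *Shox2*, *Tbx18* and *Tbx3* build and maintain the node, and Tbx2 and Tbx3 keep the working-muscle genes silent in the nodes and the atrioventricular canal. The impulse is delayed in the atrioventricular node and then spreads through the His bundle and the Purkinje fibers, which couple through connexin 40 (*Gja5*) and carry the surface molecule contactin 2 (*Cntn2*). These cells are a small share of a whole heart, and in such bulk RNA fewer cells of a type and less RNA per cell cannot be told apart.

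In each WT heart 24932 to 25747 probes gave a signal well above background (60.6% to 62.5%), in each SIRT1 KO heart 24489 to 26733 (59.5% to 64.9%), and no spot was saturated. The 6 cardiomyocyte markers were well above background on all 8 arrays, and of the 7 lung markers 5 were well above background on no array. The summed level of 6 ventricular markers, in multiples of the 75th percentile intensity of the array, was 913 to 991 in the WT hearts and 1029 to 1240 in the SIRT1 KO hearts, with none of the 6 past the test threshold. Nearly all of this sum comes from *Myl2*, *Myl3* and *Myh7* (log2 fold changes 0.23, 0.13 and 0.31). The much dimmer *Irx4*, *Hey2* and *Lbh* had 0.13, -0.01 and 0.02. The liver markers summed to 4.05 to 13.4 in the WT hearts and 4.92 to 59.8 in the SIRT1 KO hearts, with the highest sum in SIRT1 KO heart 1. The WT arrays lie on 1 slide, scanned on 1 day, and the SIRT1 KO arrays on another slide and day, and these factors cannot be told apart from genotype. The labels do not say more of the hearts than their number, and p-values measure the spread between these 4 and 4 samples. On 1 *Sirt1* probe (A_52_P358612) the log2 signal was 0.54 higher in the hearts labelled SIRT1 KO (adjusted p = 0.0323, limma), and on the other (A_51_P141152) the log2 fold change was -0.11 (adjusted p = 0.589). No loss of the *Sirt1* transcript was therefore seen, and which part of the gene these probes read relative to the deletion was not examined here. Every direction given here follows the labels.

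Values are log2 intensities minus the 75th percentile of each array, so 0 is the level below which 75% of the spots of that array lie. They are compared between hearts for 1 probe at a time, and levels of different probes are not set against each other. A probe was tested if it was well above background, as Agilent's software marks it, on at least 4 of the 8 arrays, and it passed the threshold if its adjusted p was under 0.05 in limma with Benjamini-Hochberg adjustment over all 25615 probes tested. Of the 14 probes, 9 probes of 7 genes were tested. *Cntn2* passed the threshold and was lower in the SIRT1 KO hearts, while none of the other 8 tested probes, of *Hcn2*, *Hcn4*, *Tbx2*, *Tbx3*, *Gja5* and *Gjc1*, passed it. Across the array 1250 of the 25615 tested probes passed (4.88%), 233 of them lower in the SIRT1 KO hearts (0.91%) and 1017 higher (3.97%). Of the 9 member probes 6 had a higher mean and 3 a lower mean in the SIRT1 KO hearts, with a median log2 fold change of 0.11, against 0.01 over all tested probes. *Shox2* and *Isl1* were not tested, since their probes were well above background on 0 and 1 of the 8 arrays.

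**Figure D1:**
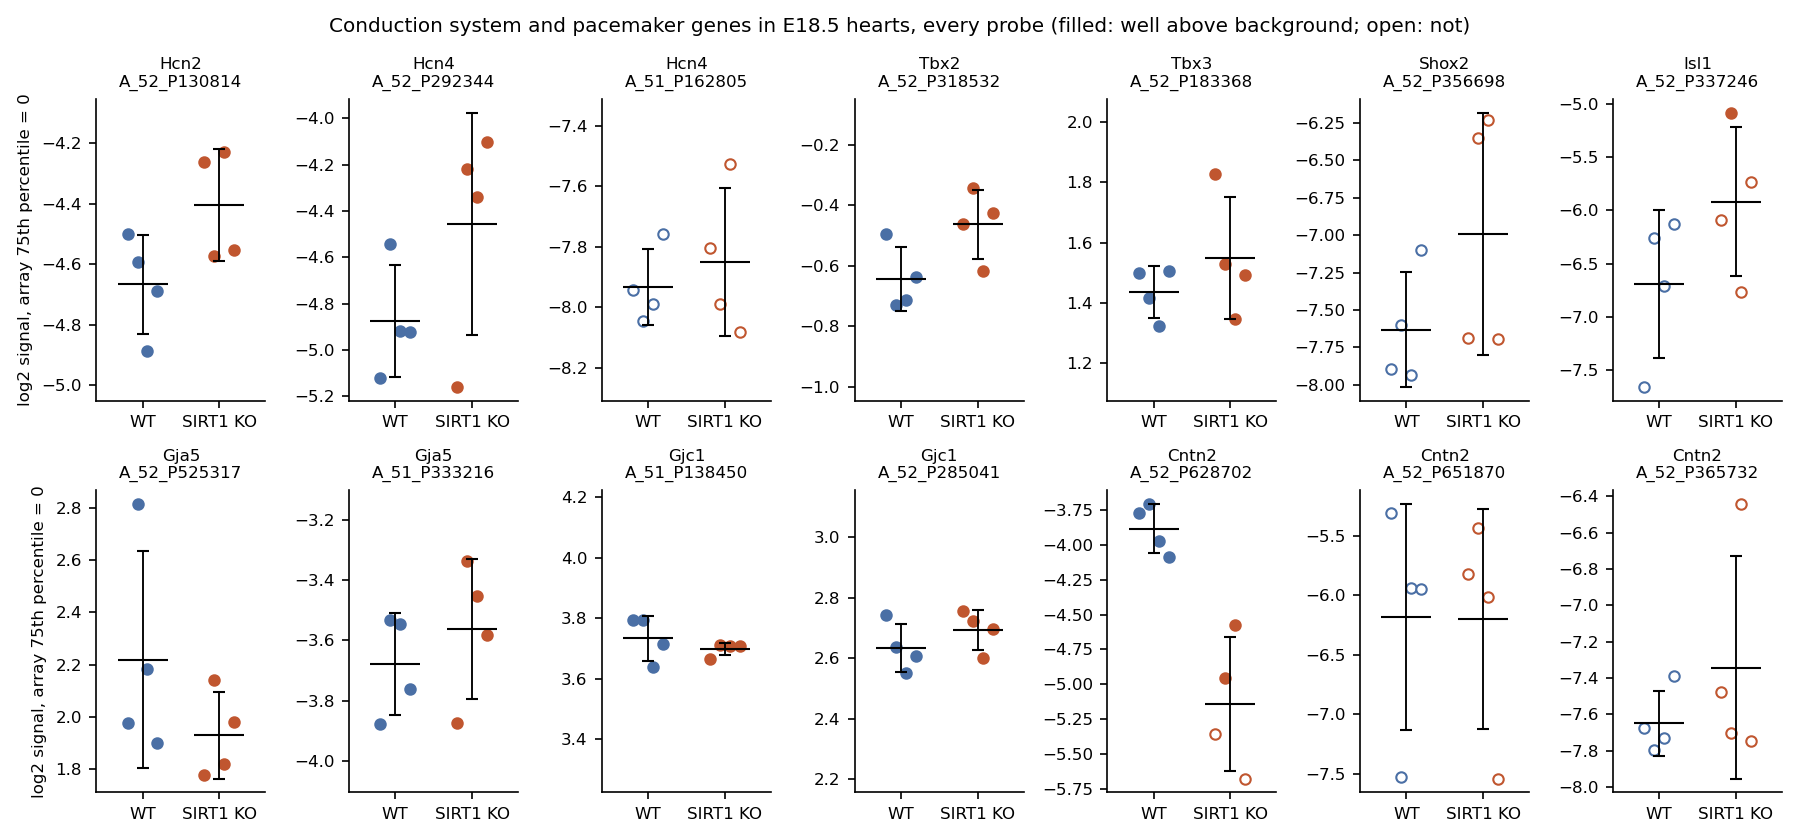
Log2 signal of each of the 14 probes in the 4 WT and the 4 SIRT1 KO hearts, with the 75th percentile of each array at 0; each panel has its own vertical axis, points are hearts (filled where the probe was well above background), and the bars are the mean and SD of 4 hearts. The genotypes overlap in every tested probe except *Cntn2* A_52_P628702, whose WT hearts lie between -4.09 and -3.71 and whose SIRT1 KO hearts lie between -5.68 and -4.58.

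*Hcn4* encodes the main pacemaker channel of the sinoatrial node, and *Hcn2* a faster-opening channel of the same family. The brighter *Hcn4* probe (A_52_P292344) gave log2 signals of -5.12, -4.54, -4.92 and -4.92 in the WT hearts and of -5.16, -4.22, -4.34 and -4.10 in the SIRT1 KO hearts. Heart 1 of the SIRT1 KO group was the lowest of all 8, and the other 3 SIRT1 KO hearts were above every WT heart. The means were -4.88 ± 0.24 and -4.46 ± 0.48 (SD, n = 4 each), a log2 fold change of 0.42 (SE 0.23, 95% interval -0.09 to 0.93) that did not pass the threshold (adjusted p = 0.323 in limma). Leaving out each heart in turn gave 0.30 to 0.66, and none of these 8 fits passed. The highest value was that without SIRT1 KO heart 1 (adjusted p = 0.0524, limma). With the median signals corrected by normexp and an offset of 50 intensity units added, in place of the deposited background subtraction, the log2 fold change was 0.33 and passed (adjusted p = 0.0215, limma). That was the only 1 of 20 alternatives to pass, and the lowest value was 0.20, with no scaling between arrays. The signal itself was low, between 25.3 and 50.3 intensity units, and the second *Hcn4* probe (A_51_P162805) read 3.19 to 4.34 intensity units and was well above background on no array.

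The 250 bases before the *Hcn4* transcription start are shown because T-box factors, to which Tbx2 and Tbx3 belong, bind the core AGGTGT. The sequence is from RefSeq (GRCm38.p6, chr9:58822699-58822948, plus strand), printed 5′ to 3′ with the match in capitals. RefSeq promoter windows were at hand for 6 of the 9 members, without *Tbx2*, *Tbx3* and *Gjc1*.
Hcn4: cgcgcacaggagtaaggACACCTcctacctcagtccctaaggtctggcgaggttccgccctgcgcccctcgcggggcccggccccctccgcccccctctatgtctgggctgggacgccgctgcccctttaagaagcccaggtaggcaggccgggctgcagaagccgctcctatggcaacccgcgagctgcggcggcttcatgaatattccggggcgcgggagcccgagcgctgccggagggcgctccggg
The capitals mark the core as read on the reverse strand (ACACCT), 233 bases before the start (position -233). One or more matches on either strand were found in 11.8% of the 32851 promoter windows of this length, and in no other of the 6 member windows. A match of this length is a description of the letters and not of binding.

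The *Hcn2* probe (A_52_P130814) read -4.50, -4.59, -4.89 and -4.69 in the WT hearts and -4.26, -4.57, -4.23 and -4.55 in the SIRT1 KO hearts. SIRT1 KO hearts 1 and 3 were above every WT heart, and hearts 2 and 4 lay within the WT range. The log2 fold change was 0.26 (SE 0.12, 95% interval -0.002 to 0.53), with p = 0.0513 before adjustment (adjusted p = 0.236 in limma), and the exact permutation test gave p = 0.114. Over the 20 alternatives the log2 fold change of this probe ran from 0.04, with no scaling between arrays, to 0.32, and none passed. Its signal was likewise low, between 34.2 and 47.3 intensity units on all 8 arrays.

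Tbx2 and Tbx3 are closely related repressors of working-muscle genes in the atrioventricular canal and in the nodes. *Tbx3* (A_52_P183368) read 1.50, 1.42, 1.33 and 1.51 in the WT hearts and 1.83, 1.53, 1.35 and 1.49 in the SIRT1 KO hearts. SIRT1 KO heart 1 was the highest of all 8, heart 2 was just above the WT hearts, and hearts 3 and 4 lay within their range. The means of 1.44 ± 0.085 and 1.55 ± 0.20 (SD, n = 4 each) gave a log2 fold change of 0.11 (SE 0.11, 95% interval -0.13 to 0.35, adjusted p = 0.58 in limma). *Tbx2* (A_52_P318532) read -0.50, -0.73, -0.71 and -0.64 in the WT hearts and -0.46, -0.34, -0.62 and -0.43 in the SIRT1 KO hearts. SIRT1 KO hearts 1, 2 and 4 were above all WT hearts and heart 3 was not, and the log2 fold change was 0.18 (SE 0.09, 95% interval -0.02 to 0.38, adjusted p = 0.268 in limma, exact permutation p = 0.0571). The sign of both probes turned to lower with no scaling between arrays (-0.04 for *Tbx2* and -0.11 for *Tbx3*), and that of *Tbx3* also with scaling on the array median (-0.02). These settings also moved the median of all tested probes, to -0.21 and -0.12, below the value of either gene in the same setting.

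*Shox2* and *Isl1* encode homeodomain factors of the sinoatrial node, and neither met the filter for testing. The *Shox2* probe (A_52_P356698) read 4.1 to 6.8 intensity units in the WT hearts and 4.2 to 11.0 in the SIRT1 KO hearts, and it was not well above background on any of the 8 arrays. The *Isl1* probe (A_52_P337246) read 5.1, 13.5, 9.7 and 13.5 intensity units in the WT hearts and 13.3, 26.6, 7.1 and 16.2 in the SIRT1 KO hearts. It was well above background in SIRT1 KO heart 2 alone. Fitted with no filter on dim probes, neither gene passed the threshold. At this signal that does not show equal levels, and the 2 genes are not called absent.

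Connexin 40, encoded by *Gja5*, couples atrial cardiomyocytes and the His-Purkinje fibers, and it is also made by arterial endothelium. Its brighter probe (A_52_P525317) read 1.98, 2.81, 2.18 and 1.90 in the WT hearts and 1.78, 2.14, 1.82 and 1.98 in the SIRT1 KO hearts. WT heart 2 was the highest of the 8 and SIRT1 KO heart 1 the lowest, and the genotypes overlapped between them. The means were 2.22 ± 0.41 and 1.93 ± 0.17 (SD, n = 4 each), a log2 fold change of -0.29 (SE 0.19, 95% interval -0.72 to 0.15, adjusted p = 0.414 in limma). Without WT heart 2 it was -0.09. The dimmer probe (A_51_P333216), at 61.8 to 89.3 intensity units, had the opposite sign, with a log2 fold change of 0.12 (SE 0.13, 95% interval -0.18 to 0.41, adjusted p = 0.64 in limma), and this sign turned with 3 of the other scalings.

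The atrial markers *Myl7*, *Sln*, *Myl4*, *Nppa*, *Bmp10* and *Stard10* are given beside the brighter *Gja5* probe. All 6 were well above background on all 8 arrays, and none passed the threshold. Their summed level, on the same scale as the sums above, was 469, 711, 487 and 512 in the WT hearts and 326, 698, 439 and 359 in the SIRT1 KO hearts. WT heart 2 and SIRT1 KO heart 2 had the highest sums, and SIRT1 KO heart 1 the lowest. For *Gja5*, too, heart 2 was the highest of each genotype and SIRT1 KO heart 1 the lowest of all, but in heart 4 the order differed: WT heart 4 had the lowest *Gja5* value of the WT hearts and the second highest sum, and SIRT1 KO heart 4 the second highest *Gja5* value and the second lowest sum of its genotype. Of the 7 arterial endothelium markers 1 passed the threshold and was lower, *Gja4* (connexin 37, log2 fold change -0.40, adjusted p = 0.0345 in limma), and their summed level was 24.2 to 27.4 in the WT hearts and 20.4 to 25.0 in the SIRT1 KO hearts. The part of atrial or arterial tissue in the *Gja5* values was not tested.

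**Figure D2:**
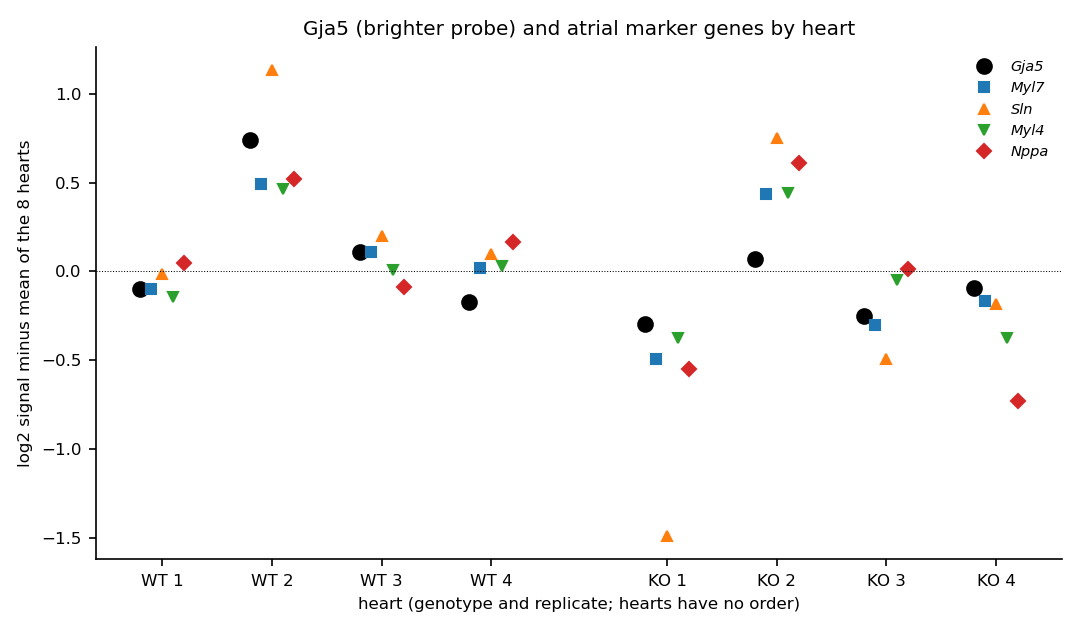
Log2 signal of the brighter *Gja5* probe and of 4 atrial marker genes in each heart, as the difference from that gene's mean over the 8 hearts; each point is 1 heart and hearts have no order. In WT heart 2 and SIRT1 KO heart 2 all 5 genes lie above their means, and in SIRT1 KO heart 1 all 5 lie below them.

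The *Gja5* window is shown because Nkx2-5, a homeodomain factor that conduction cells share with working muscle, binds the core AAGTG. The 250 bases before the start (RefSeq, GRCm38.p6, chr3:97032152-97032401, plus strand) hold it once, in capitals, at position -62 from the start.
Gja5: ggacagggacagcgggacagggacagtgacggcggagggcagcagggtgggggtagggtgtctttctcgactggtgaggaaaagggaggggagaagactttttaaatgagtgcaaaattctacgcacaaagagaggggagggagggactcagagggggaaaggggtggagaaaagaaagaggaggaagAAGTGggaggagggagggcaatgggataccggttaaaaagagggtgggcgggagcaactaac
That core, on either strand, is in 40.7% of the 32851 windows and in the *Gja5* and *Cntn2* windows among the 6 members, so its presence sets neither gene apart. The GATA core AGATAA (or TTATCT on the reverse strand) is in 9.99% of the windows and in none of the 6 members. No 2 matches overlapped.

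*Gjc1* encodes connexin 45, the connexin of the sinoatrial and atrioventricular nodes and of the early heart tube. Its brighter probe (A_51_P138450) read 3.79, 3.79, 3.64 and 3.71 in the WT hearts and 3.67, 3.71, 3.71 and 3.71 in the SIRT1 KO hearts. All 4 SIRT1 KO hearts lay inside the WT range. The log2 fold change was -0.04 (SE 0.07, 95% interval -0.19 to 0.12, adjusted p = 0.793 in limma). The second probe (A_52_P285041) read 2.55 to 2.74 in the WT hearts and 2.60 to 2.75 in the SIRT1 KO hearts, a log2 fold change of 0.06 (SE 0.07, 95% interval -0.11 to 0.23, adjusted p = 0.673 in limma). The SEs of both *Gjc1* probes were the smallest of the 9 tested member probes, and their intervals lay between -0.19 and 0.23.

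Contactin 2 is an adhesion molecule of the immunoglobulin superfamily that marks Purkinje and other conduction cells and is also carried by axons. The brightest *Cntn2* probe (A_52_P628702) read -3.77, -3.71, -3.97 and -4.09 in the WT hearts and -5.36, -4.96, -4.58 and -5.68 in the SIRT1 KO hearts. Every SIRT1 KO heart was below every WT heart, and the genotypes also did not overlap in 3519 of all 25615 tested probes (13.7%). The means were -3.88 ± 0.18 and -5.14 ± 0.48 (SD, n = 4 each), a log2 fold change of -1.26 (SE 0.22, 95% interval -1.75 to -0.77), or 0.418 of the WT level, and it passed the threshold (adjusted p = 0.0136 in limma). The exact permutation test gave p = 0.0286, the smallest that 4 against 4 allow.

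The *Cntn2* signal was close to the background. It was 55.3 to 79.1 intensity units in the WT hearts and 16.9 to 32.6 in the SIRT1 KO hearts, and it cleared the background mark in all 4 WT hearts but only in SIRT1 KO hearts 2 and 3. The probe would have met the filter of 4 arrays through the WT hearts alone, and its fold is approximate. Among the dimmer 8538 of the tested probes, to which it belongs, 750 passed the threshold (8.78%), 88 of them lower in the SIRT1 KO hearts (1.03%). Of the 9 tested member probes 4 belong there. The other 2 *Cntn2* probes were well above background on no array: A_52_P651870 read 4.6 to 26.0 intensity units and A_52_P365732 4.0 to 8.9, so the fall rests on 1 probe. With the median signals corrected by normexp and the offset of 50 intensity units, the log2 fold change was -0.22 and did not pass (adjusted p = 0.168, limma). How much of this change came from the offset was not tested. With the methods' analysis of variance the adjusted p was 0.0714. Leaving out each heart in turn gave -1.45 to -1.08, and all 8 of these fits passed the threshold.

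Since *Cntn2* is also carried by axons, markers of cardiac ganglia and nerve are given beside it. Of 10 ganglion neuron genes 4 were well above background on all 8 arrays and 6 on none, among them *Dbh* and *Th*, and their summed level was 0.475 to 0.585 in the WT hearts and 0.499 to 0.586 in the SIRT1 KO hearts. The 6 Schwann cell genes summed to 0.733 to 0.813 in the WT hearts and 0.862 to 0.972 in the SIRT1 KO hearts, with *Sox10* (log2 fold change 0.80, adjusted p = 0.0199 in limma) and *Foxd3* (0.60, adjusted p = 0.0225 in limma) higher and *Erbb3* among the 2 well above background on no array. The neuron sums overlapped between the genotypes, while their tested members went both ways. *Elavl4* was lower in every SIRT1 KO heart than in any WT heart (log2 fold change -0.46, adjusted p = 0.061 in limma) and *Tubb3* had 0.50 (adjusted p = 0.0621), and neither passed the threshold. The Schwann cell sum of every SIRT1 KO heart was above that of every WT heart. Their part in the *Cntn2* value was not tested.

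The *Cntn2* window is printed as that of the member that passed the threshold. It is the 250 bases before the start in RefSeq (GRCm38.p6, chr1:132542941-132543190, minus strand), with the Nkx2-5 core of the reverse strand (CACTT) in capitals at position -212.
Cntn2: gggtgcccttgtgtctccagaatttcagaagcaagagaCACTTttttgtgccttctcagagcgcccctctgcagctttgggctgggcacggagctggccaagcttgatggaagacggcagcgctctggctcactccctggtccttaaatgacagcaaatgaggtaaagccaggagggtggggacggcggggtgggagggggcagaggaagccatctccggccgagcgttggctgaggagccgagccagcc
Of the window 61.2% is G or C, against a median of 52.4% over the 32851 windows, 71.2% for *Hcn4* and 56.4% for *Gja5*.

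**Figure D3:**
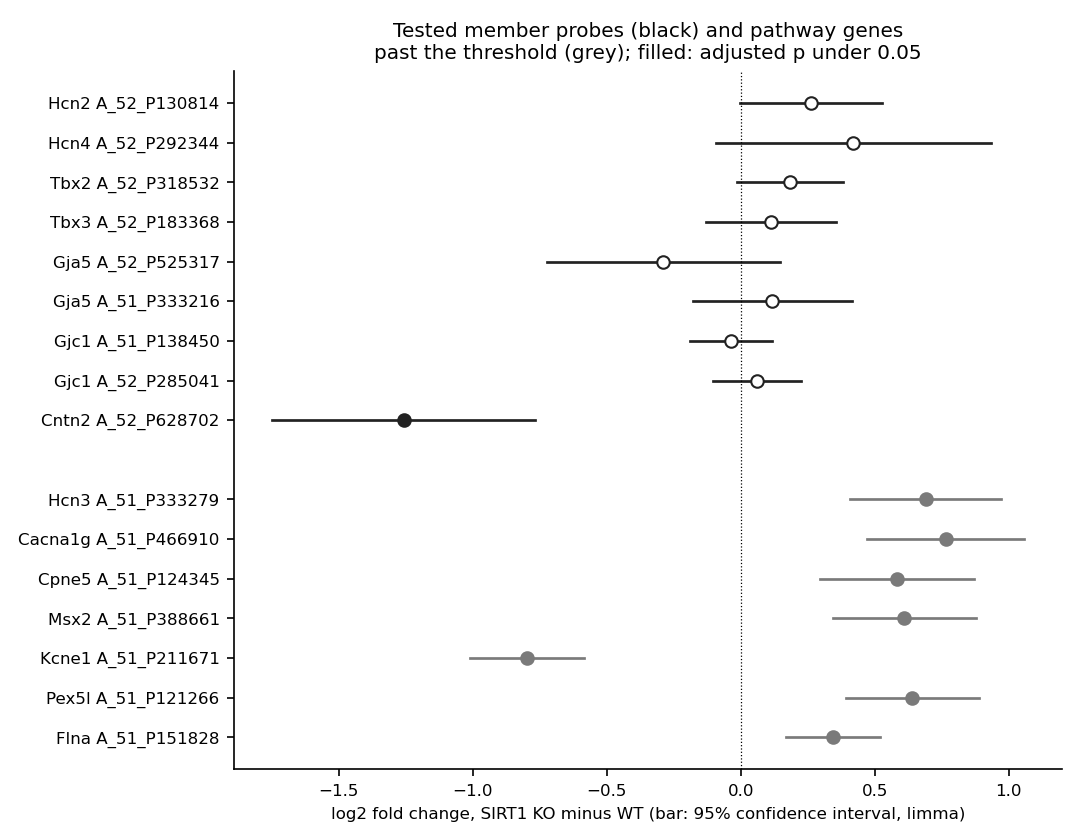
Log2 fold change (SIRT1 KO minus WT, with the 95% interval of limma) of the 9 tested member probes in black and of 7 other conduction genes past the threshold in grey; filled points passed the threshold of adjusted p under 0.05. Among the members *Cntn2* lies at -1.26 and the intervals of the other 8 probes include 0.

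Around the members, 56 further genes were grouped in 4 lists: the nodal program (28 genes), the His-Purkinje program (17), chamber genes that Tbx2 and Tbx3 repress (6) and partners of the HCN channels (10). *Nppa*, *Gja1*, *Nkx2-5* and *Tbx5* are among the genes in more than 1 list, and each gene is represented by its brightest tested probe. Of the 56 genes 54 were tested, 6 were past the threshold and higher in the SIRT1 KO hearts, 2 were past it and lower, and 25 had a higher and 29 a lower mean, with a median log2 fold change of -0.01. Over all 13594 genes tested 4.58% passed, 3.69% as higher and 0.897% as lower, and the median was also -0.01. Among the 8 genes were *Hcn3*, *Cacna1g*, *Cpne5*, *Msx2*, *Pex5l* and *Flna*, all higher, and *Kcne1*, which was lower. With no scaling between arrays 2 genes were higher and 10 lower, and with the array median as the scale 4 were higher and 3 lower. With the methods' analysis of variance 0 were higher and 1 was lower, *Kcne1*, so none of the higher calls described next held in that test.

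**Figure D4:**
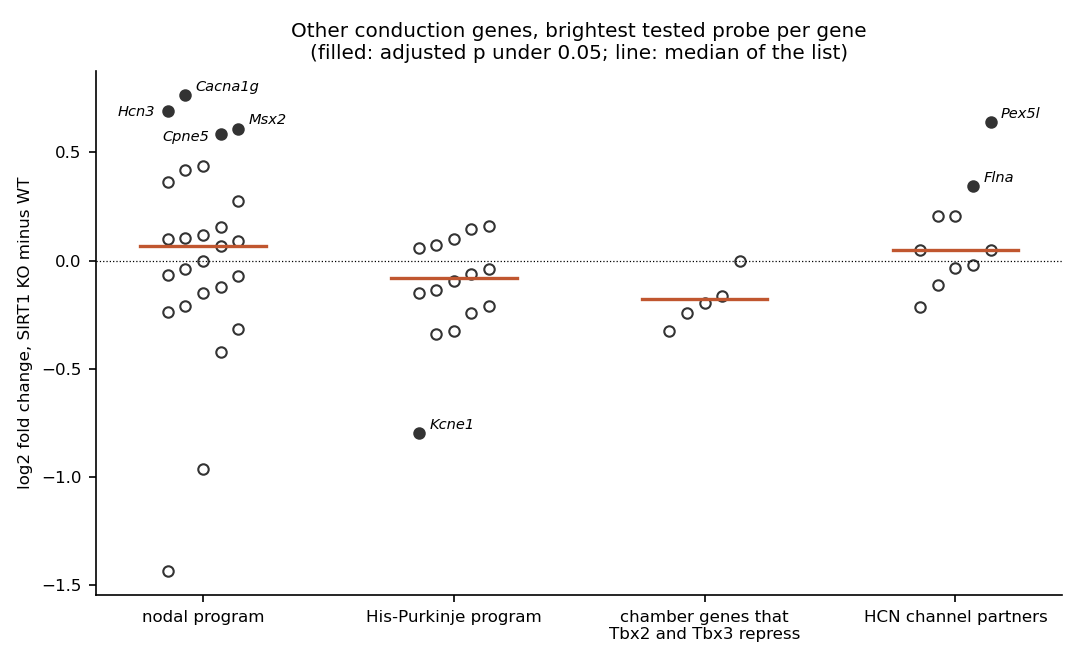
Log2 fold change (SIRT1 KO minus WT) of tested genes of the 4 lists except 2 that are not reported, each by its brightest tested probe; filled points passed the threshold of adjusted p under 0.05 and are named, and the line is the median over all tested genes of each list. The medians lie between -0.18 and 0.07, and the 7 named genes lie on both sides of 0.

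In the nodal program 27 of 28 genes were tested, 4 passed as higher and 1 as lower, and the median log2 fold change was 0.07. *Cacna1g*, which encodes the T-type calcium channel Cav3.1 of pacemaker cells, read 0.58, 0.82, 1.20 and 1.07 in the WT hearts and 1.69, 1.75, 1.59 and 1.70 in the SIRT1 KO hearts. The SIRT1 KO hearts lay close together above all WT hearts, a log2 fold change of 0.76 (SE 0.13, adjusted p = 0.0127 in limma), and the dimmer probe had 0.45 (adjusted p = 0.061). *Hcn3*, a further pacemaker channel gene, read -4.75, -5.04, -5.04 and -4.83 in the WT hearts and -4.01, -4.26, -4.53 and -4.10 in the SIRT1 KO hearts, a log2 fold change of 0.69 (SE 0.13, adjusted p = 0.017 in limma). Its signal was low, between 30.8 and 56.1 intensity units. Its call was lost without WT heart 2 (adjusted p = 0.053) or WT heart 3 (adjusted p = 0.0545), and also with quantile normalization (adjusted p = 0.0606) and with no scaling (adjusted p = 0.0541).

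*Msx2*, a homeodomain factor of the atrioventricular canal, was higher by 0.61 (SE 0.12, adjusted p = 0.0221 in limma), with -3.15 to -2.86 in the WT and -2.63 to -2.20 in the SIRT1 KO hearts. *Cpne5*, a calcium-dependent membrane-binding protein, was higher by 0.58 (SE 0.13, adjusted p = 0.0344 in limma) on its brighter probe, and its second tested probe had 0.25 (adjusted p = 0.294). The calls of *Msx2* and *Cpne5* held in 4 and 2 of the 8 fits that left out 1 heart: *Msx2* lost it without WT heart 1 or 2 or SIRT1 KO heart 1 or 2, with adjusted p up to 0.0644, and *Cpne5* kept it only without WT heart 2 or SIRT1 KO heart 3. Neither call held with no scaling between arrays, and that of *Msx2* was also lost with the replicate number as a block.

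Of the His-Purkinje program 16 of 17 genes were tested, *Irx3* being well above background on no array, and 1 passed the threshold. *Kcne1*, the accessory subunit of the slow delayed rectifier potassium channel, read 5.17, 4.96, 4.86 and 5.01 in the WT hearts and 4.30, 4.08, 4.32 and 4.10 in the SIRT1 KO hearts. The fall of 0.80 on the log2 scale was large against the spread of either genotype (log2 fold change -0.80, SE 0.09, adjusted p = 0.0031 in limma), to 0.575 of the WT level. Its call held in all 20 alternatives run, but it rests on 1 probe. The second *Kcne1* probe (A_52_P71704) read 7.4 to 17.8 intensity units and was well above background on no array. The list had 6 genes with a higher and 10 with a lower mean and a median of -0.08.

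The 6 chamber genes were all tested and none passed the threshold in limma, with an unadjusted p under 0.05 in 1 of them and also none past the threshold in the methods' analysis of variance. *Gja1*, connexin 43 of the working myocardium, had a log2 fold change of -0.24 (SE 0.11, adjusted p = 0.251 in limma) and overlapping genotypes. The list had 1 gene with a higher and 5 with a lower mean and a median of -0.18.

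Of the 10 partners of the HCN channels 2 passed the threshold, both higher. *Pex5l* encodes TRIP8b, a subunit that controls HCN channel trafficking, and read -5.22, -5.36, -5.57 and -5.39 in the WT hearts and -4.65, -4.99, -4.74 and -4.60 in the SIRT1 KO hearts. Its log2 fold change was 0.64 (SE 0.11, adjusted p = 0.0131 in limma), but only 2 of the 4 WT arrays were well above background for it. At 21.3 to 36.0 intensity units it would have met the filter through the 4 SIRT1 KO arrays alone, and its fold is approximate. The call was lost with normexp and its offset (0.29, adjusted p = 0.0953 in limma) and with quantile normalization (0.42, adjusted p = 0.12). *Flna*, the actin crosslinker filamin A, was higher by 0.34 on its brightest probe (SE 0.08, adjusted p = 0.0406 in limma) and by 0.81 on its dimmest (adjusted p = 0.0164), whereas the probe between them had 0.06 (adjusted p = 0.671). The brightest probe's call held in 2 of the 8 fits that left out 1 heart, those without SIRT1 KO heart 3 or 4. Across the 4 lists the number of genes past the threshold was 5 without WT heart 1, WT heart 3 or SIRT1 KO heart 1.

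The genes whose pattern over the 8 hearts was most like that of a member were sought among 12826 genes well above background on all arrays, by Pearson's r. They were *Alkbh4* and *Bri3* for *Hcn2* (r = 0.98 and 0.95), *Glt8d2* and *Slc11a1* for *Hcn4* (r = 0.96 for both), *Plxna3* and *Med12* for *Tbx2* (0.97 and 0.96), and *Ngp* and *Poglut2* for *Tbx3* (0.97 and 0.96). For *Gja5* they were *Pbdc1* and *Ifit3* (0.96 for both), and for *Gjc1* they were *Kif3b* and *Aldh18a1* (0.93 for both). Each is one of the 2 highest of 12826 values over 8 hearts, and all of them share arrays and slides. None of the nearest genes was a conduction gene of the lists. Between the 6 members themselves the 15 values of r ran from -0.45 to 0.57, with 9 above 0. After the genotype means were removed they ran from -0.75 (*Hcn4* and *Tbx3*) to 0.61 (*Hcn4* and *Gja5*).

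**Figure D5:**
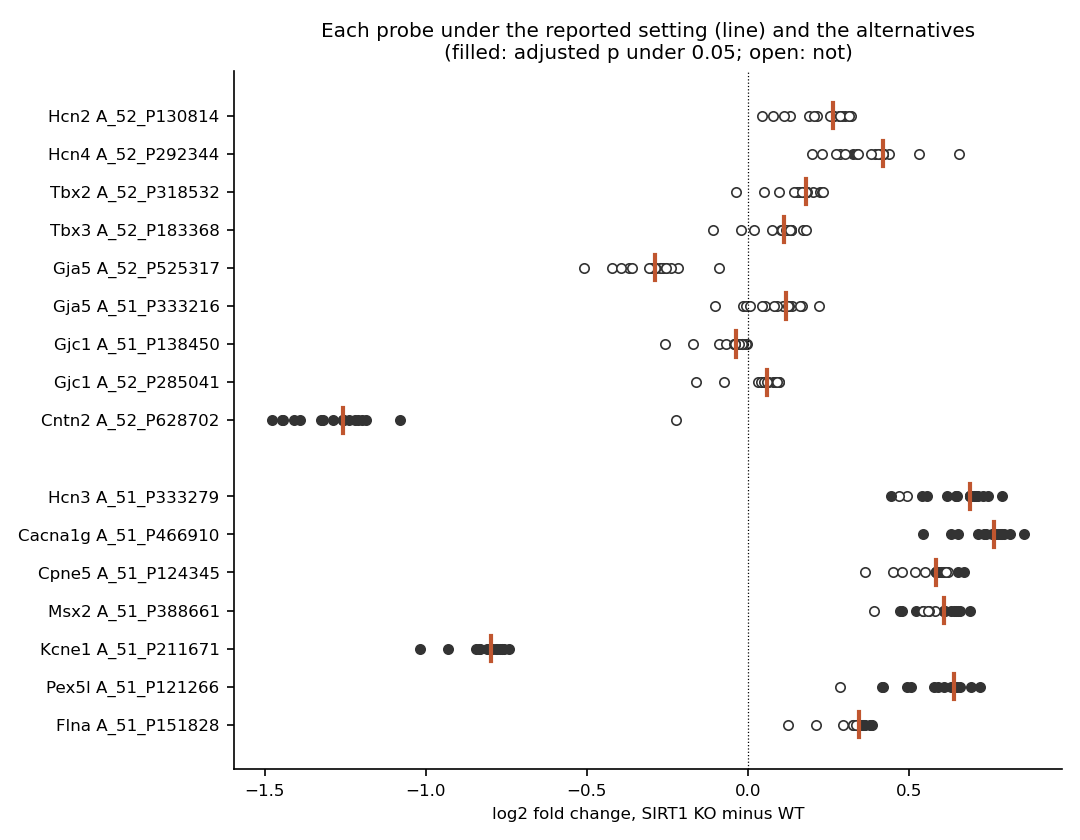
Log2 fold change (SIRT1 KO minus WT) of each probe under the reported setting (vertical line) and under each alternative (points, filled where the adjusted p was under 0.05). *Cntn2* lies between -1.48 and -1.08 except at -0.22 with normexp and its offset, *Kcne1* is filled throughout, and 4 member probes lie on both sides of 0.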

How the data were processed

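RNA from 4 WT and 4 SIRT1 KO hearts (500 ng, Cy3) was hybridized to one-color Agilent whole mouse genome arrays. The authors deposited spot intensities from Agilent Feature Extraction (12.0.0.7 in the file headers), background-subtracted and unscaled between arrays, and a series table equal to it in 100% of spots. Log2 of these intensities was taken, the 75th percentile of non-control spots subtracted, spots marked as outliers left out and spots of a probe averaged. Accessions were named through RefSeq (GRCm38.p6, for names). Probes that were well above background on 4 or more arrays were fitted with limma 3.58.1 (R 4.3.3), tested on simulated data, with Benjamini-Hochberg adjustment at 0.05; Python 3.11.15 did the rest. Exact permutation tests were two-sided. The number of arrays limits the precision.

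Named are all member probes, each list gene past the threshold, otherwise the 2 list genes of smallest p, and the 2 genes most like each member. Members and lists were chosen with earlier results of these data known. Alternatives covered scaling, background correction, filter, the methods' analysis of variance with genotype as its only factor, array weights, a replicate block and each heart left out; raising signals to the lowest well above background was added after seeing the data. Proteins of the members were not compared here. Some genes of the lists are not reported here.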

Additional observations from a re-analysis of the deposited data

Results flagged for a closer look

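Among 34 groups of 4 hearts (each tested member probe and the brightest probe of each list gene past the threshold, in each genotype), 2 held a heart far from the other 3, as chance does in about 1 in 20 groups. For *Gjc1* (A_51_P138450) SIRT1 KO heart 1 read 3.67, where the other SIRT1 KO hearts read 3.71, a gap of 0.935 of the whole range. The gap is small on the log2 scale, and the 4 hearts stayed inside the WT range. For *Cpne5* (A_51_P124345) SIRT1 KO heart 2 read 2.15, where the others read 1.73 to 1.76, a gap of 0.922 of the range.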

How the results depend on the processing

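The number of member probes past the threshold, 1 in the reported setting, fell to 0 with probes well above background on every array, which leaves *Cntn2* out, and to 0 with the methods' analysis of variance; with normexp it was also 1, but that probe was *Hcn4* and not *Cntn2*. The number of list genes, 8 in the reported setting, was 1 with the analysis of variance (*Kcne1*), 5 to 8 with 1 heart left out, and 6 to 12 in the other alternatives. Member probes gave 1 in each fit that left out a heart. Signs turned for *Tbx2* with no scaling (-0.038), for *Tbx3* with median scaling (-0.021) and no scaling (-0.11), for the dimmer *Gja5* probe with median scaling (-0.015), quantile normalization (-0.0051) and no scaling (-0.10), and for the dimmer *Gjc1* probe with median scaling (-0.073) and no scaling (-0.16). Of 160 values of the 8 other member probes 151 kept their sign and side of the threshold, and of 159 values of the 8 list genes 121 stayed past it and none turned sign. Over all probes, the 1250 that passed became 1904 with median scaling, 6352 with no scaling, 2695 with normexp, 546 with the analysis of variance and 2131 with array weights, and the causes were not tested. The replicate numbers of the labels were not taken as pairs, since the deviations of same-numbered hearts correlated by 0.0562 to 0.207 and 1 of the 4 was under 0.1, but all 8 hearts correlated best with their own number, so pairing is not excluded. With the replicate block 1 member probe (*Cntn2*, adjusted p = 0.0219 in limma), 9 list genes and 1185 probes passed; *Msx2* (adjusted p = 0.0664) and *Flna* (adjusted p = 0.0787) no longer did, and *Adcy1*, *Bmp2* and *Kcnj3* did. Of the 14 member probes 5 did not meet the filter of the reported setting. With no filter on dim probes all 14 were fitted, and 1, of *Cntn2*, passed.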
